A study of Mus musculus with 14 samples.

Results

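The 10 genes described here encode calcium/calmodulin-dependent protein kinases and their regulators: the CaMKII genes Camk2a, Camk2b, Camk2d and Camk2g, the CaMKII inhibitors Camk2n1 and Camk2n2, the kinase Camk4, the upstream kinases Camkk1 and Camkk2, and Camkv. They were chosen by name, as the rows of the count table whose identifiers carry these mouse symbols, and all 10 were found among 48440 genes. The libraries were bulk RNA-seq of total RNA from C57BL/6 mice, 7 from CARIP-/- mice (KO) and 7 from wild-type mice (WT). They comprised 3 KO and 3 WT cerebella, 2 KO and 2 WT hippocampi, and 2 KO and 2 WT samples labelled cerebral cortex, whose titles read Cerebrum. The sources used here do not state age, sex, the kind of CARIP allele or the cells in which it was lost, and the targeted gene is not reported because no symbol in the annotation names CARIP. Nothing in the labels says that libraries of a group came from separate animals, so p-values measure the spread between these libraries, which may be technical. The labels also do not say whether libraries of different regions came from the same animals. Unless a random block is named, the tests treat them as independent. Libraries held 20.1 to 38.8 M counted reads.

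CaMKII is a multisubunit kinase, abundant at synapses, that calcium-loaded calmodulin switches on and that can then keep itself active by phosphorylating itself, a step needed for long-term potentiation in the hippocampus. Different genes supply its alpha, beta, delta and gamma subunits, and the beta subunit also binds actin. CaMKIV, found largely in the nucleus, phosphorylates the transcription factor CREB and is itself activated by the CaM kinase kinases.

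CPM are read counts scaled to a common library size with TMM factors. Levels are given as RPKM, which is CPM divided by the length of the merged exons in kilobases, so that genes can be compared. Differences between groups are log2 fold changes ± SE from a fit to all genes, in which an adjusted p under 0.05 counts as a call. Each tissue label was met by its defining markers. The 5 cerebellar granule cell markers summed to 2908 to 4882 CPM in cerebellum and to at most 143 CPM elsewhere. The 6 hippocampal excitatory markers summed to 473 to 793 CPM in hippocampus and at most 280.5 elsewhere, and the 6 cortical ones to 681 to 1103 CPM in cortex and at most 311 elsewhere. The 280.5 and the 681 CPM were both of KO cortex 2. The other cortical libraries had 108 to 111 CPM of the hippocampal and 1066.5 to 1103 CPM of the cortical markers. The 5 interneuron markers summed to 928 CPM in KO cortex 2 and to 486 to 551 CPM in the other cortical libraries. A few libraries stood apart. In cerebellum, both libraries numbered 2 differed from the other 4: Lamp5, a marker of cortical interneurons, was at 35.8 CPM in KO 2 and 49.96 in WT 2 and at most 1.28 in the others, and Mbp, a myelin gene, was at 2150 CPM in KO 2 and 4215 in WT 2 against 1073 to 1447. In cortex, KO 2 had 44.3 CPM of the striatal marker Drd2 and 79.4 of the thalamic marker Tcf7l2, against at most 1.27 and 11.04 in the other 3 libraries. The 5 choroid plexus markers summed to 19.9 CPM in WT cerebellum 1 against 627 to 1359 in the other 5 cerebella, to 1125 in WT hippocampus 2 against 78.4 to 127 in the other 3 hippocampi, and to 580 in KO cortex 2 against 12.3 to 30.5 in the other 3 cortical libraries. The differences of the 10 genes that lost or gained a call when libraries were left out are given with and without them. The 3 libraries called apart below are KO cerebellum 2, WT cerebellum 2 and KO cortex 2.

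**Figure D1:**
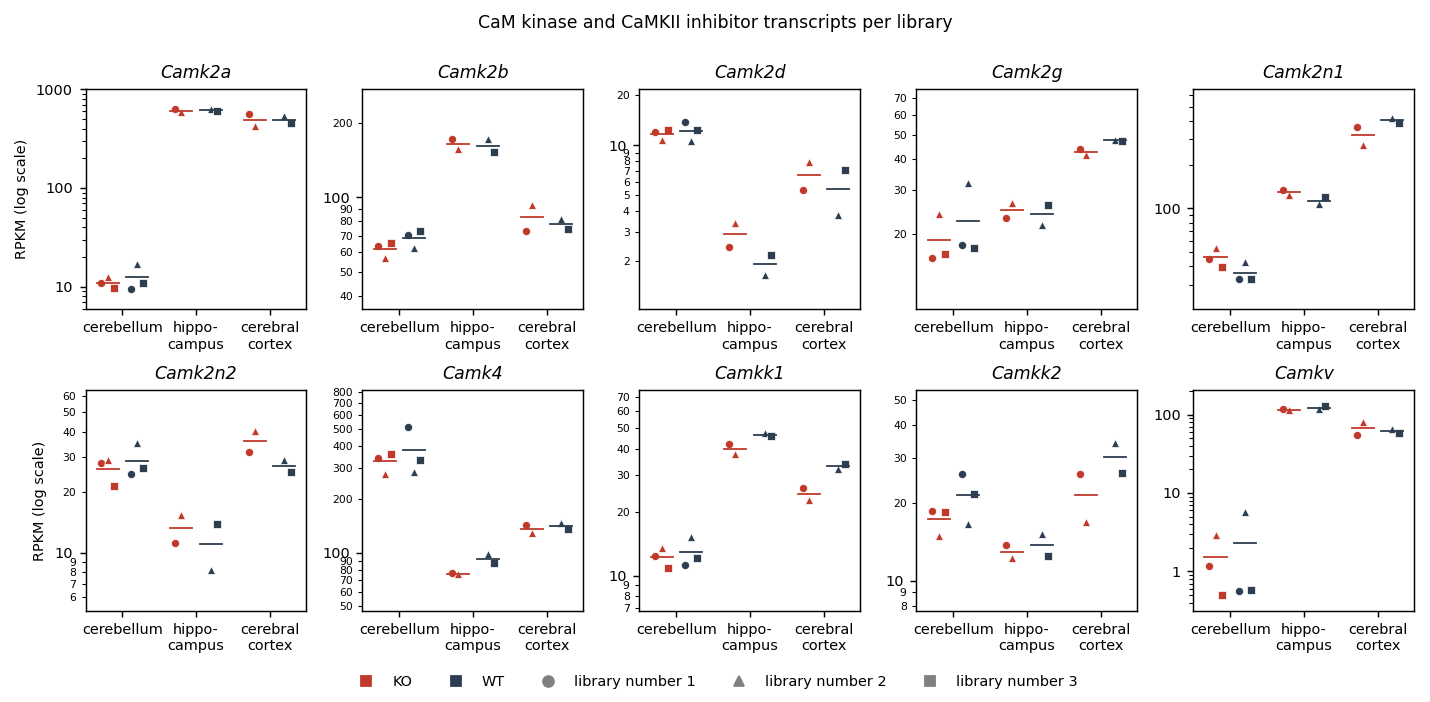
Levels of the 10 genes in each library, in RPKM on a log axis whose range differs between panels; KO libraries are red and stand left of WT libraries in dark blue, shapes give the library number and bars the group mean. The regions separate far more than the genotypes for most genes: Camk2a lies between 9.57 and 16.9 in cerebellum and between 422 and 634 in the other regions.

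Camk2a, which encodes the alpha subunit (chromosome 18, 60925618 to 60988152, plus strand, GRCm38), was the most abundant of the 4 CaMKII transcripts in the forebrain and a minor one in cerebellum. It had 10.9, 12.6 and 9.63 RPKM in KO cerebella and 9.57, 16.9 and 11.05 in WT cerebella. In hippocampus it had 634 and 582 RPKM in KO and 633 and 605 in WT, and in cortex 559 and 422 in KO and 530 and 455 in WT. No cerebellar library came near any forebrain library, whereas the values of the genotypes overlapped in every region. Cerebellum had 0.0239 times the level of cortex (log2 fold change -5.39 ± 0.17, adjusted p = 4.7e-10, edgeR quasi-likelihood test with Benjamini-Hochberg adjustment) and 0.0192 times that of hippocampus (-5.71 ± 0.17). Hippocampus exceeded cortex in every library, but the difference was not called (0.32 ± 0.17, adjusted p = 0.267, edgeR). In bulk tissue, fewer cells of a type and less RNA per cell cannot be told apart.

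Camk2b, which encodes the beta subunit (chromosome 11, 5969644 to 6066362, minus strand), varied less between regions than Camk2a. It had 63.6, 56.7 and 65.5 RPKM in KO cerebella and 70.3, 62.5 and 73.0 in WT cerebella. In hippocampus it had 172 and 157 RPKM in KO and 171 and 152 in WT, and in cortex 73.3 and 93.0 in KO and 81.4 and 74.5 in WT. Hippocampus stood clear of both other regions, with log2 fold changes of -1.32 ± 0.09 for cerebellum over hippocampus and 1.02 ± 0.10 for hippocampus over cortex. The difference of cerebellum from cortex was small (-0.30 ± 0.09, adjusted p = 0.016, edgeR). It was no longer called with scaling by library totals only (-0.12), without KO cortex 2 (-0.21), without WT cortex 2 (-0.26) or without the 3 libraries that stand apart (-0.15).

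Camk2d, which encodes the delta subunit known best from heart muscle (chromosome 3, 126596302 to 126846326, plus strand), had the opposite order of regions. It had 11.96, 10.7 and 12.2 RPKM in KO cerebella and 13.7, 10.6 and 12.4 in WT cerebella. Hippocampus had 2.42 and 3.41 RPKM in KO and 1.65 and 2.18 in WT, and cortex 5.34 and 7.90 in KO and 3.81 and 7.04 in WT. Cerebellum was the highest region and hippocampus the lowest, with no overlap between the 3 regions. The log2 fold changes were 0.99 ± 0.18 for cerebellum over cortex, 2.33 ± 0.20 for cerebellum over hippocampus and -1.34 ± 0.20 for hippocampus over cortex.

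Camk2g, which encodes the gamma subunit (chromosome 14, 20734875 to 20794088, minus strand), was highest in cortex. It had 16.0, 24.1 and 16.6 RPKM in KO cerebella and 18.0, 32.1 and 17.5 in WT cerebella. Hippocampus had 23.3 and 26.6 RPKM in KO and 21.8 and 26.1 in WT, and cortex 43.8 and 41.5 in KO and 47.8 and 47.3 in WT. The high cerebellar values were those of the libraries numbered 2, so that cerebellum and hippocampus overlapped. Their difference was not called with all libraries (-0.24 ± 0.17, adjusted p = 0.274, edgeR) and was called without WT cerebellum 2 (-0.41, adjusted p = 0.0118, edgeR) and without the 3 libraries that stand apart (-0.52). Cortex exceeded both: the log2 fold change was -1.12 ± 0.17 for cerebellum over cortex and -0.88 ± 0.19 for hippocampus over cortex, the second of which missed the threshold without KO hippocampus 1 (-0.84, adjusted p = 0.0577) or without WT hippocampus 2 (-0.82, adjusted p = 0.0561).

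The 250 bases before and 50 after the RefSeq start (GRCm38.p6) of 3 genes with contrasting regional patterns are shown. GC boxes (GGGCGG, searched on both strands) are in capitals. These starts lie downstream of the outermost starts in GENCODE, the source of the gene coordinates printed here. The windows of Camk2d and Camk2b fall wholly inside those gene bounds and that of Camkv almost wholly, so they need not be upstream of all transcripts. Camkv is nearly absent from cerebellum, Camk2d is highest there and Camk2b is present in all regions.
Camkv, chr9:107935670-107935969, plus strand: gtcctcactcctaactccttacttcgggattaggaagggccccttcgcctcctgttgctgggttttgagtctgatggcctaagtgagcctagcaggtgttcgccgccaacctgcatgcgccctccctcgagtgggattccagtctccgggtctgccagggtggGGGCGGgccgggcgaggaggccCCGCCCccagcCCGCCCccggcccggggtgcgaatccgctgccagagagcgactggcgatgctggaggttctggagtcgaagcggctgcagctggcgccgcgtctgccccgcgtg
Camk2d, chr3:126596701-126597000, plus strand: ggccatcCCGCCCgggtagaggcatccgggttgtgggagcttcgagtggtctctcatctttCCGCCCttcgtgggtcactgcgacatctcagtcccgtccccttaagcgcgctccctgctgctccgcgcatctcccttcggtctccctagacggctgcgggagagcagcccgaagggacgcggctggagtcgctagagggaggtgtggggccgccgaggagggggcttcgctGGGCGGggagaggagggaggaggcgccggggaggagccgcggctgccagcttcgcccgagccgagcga
Camk2b, chr11:6065699-6065998, minus strand: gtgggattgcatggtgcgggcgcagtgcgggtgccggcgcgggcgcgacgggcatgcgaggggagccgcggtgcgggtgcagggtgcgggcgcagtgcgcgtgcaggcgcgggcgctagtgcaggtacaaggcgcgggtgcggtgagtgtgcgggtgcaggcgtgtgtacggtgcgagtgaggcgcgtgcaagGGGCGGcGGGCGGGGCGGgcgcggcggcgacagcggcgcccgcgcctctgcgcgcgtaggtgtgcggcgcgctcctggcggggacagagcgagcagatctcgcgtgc
Each of the 3 windows held 3 GC boxes, and those of Camk2b overlapped or lay next to each other. GC content was 68.3% for Camkv, 70.3% for Camk2d and 77.3% for Camk2b. None of the 3 held a TATA box (TATAAA), the short cAMP response element TGACG or the full element TGACGTCA, on either strand. Of 32851 promoter windows of this length, 35.7% held a GC box, 13.6% the TATA box, 20.8% the short element and 1.79% the full element, which contains the short element. Entries were matched for 6 of the 10 genes, the other 3 matched being Camk2n2, Camkk1 and Camkk2. All 6 held a GC box, and Camk2n2 and Camkk1 held the short element.

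The balance of the 4 CaMKII genes was read as the share each took of their summed RPKM. In cerebellum Camk2b took the largest share, 59.8% ± 4.66 in KO and 59.4% ± 7.15 in WT (SD, n = 3 each), and Camk2a took 10.7% ± 1.41 in KO and 10.7% ± 2.77 in WT. In hippocampus Camk2a took 76.0% ± 0.401 in KO and 76.7% ± 0.360 in WT, and in cortex 78.4% ± 5.15 in KO and 78.9% ± 1.40 in WT (SD, n = 2 each). These forebrain shares of Camk2a differed less between genotypes than between the libraries of KO cortex, which were at 82.0% and 74.8%. Within hippocampus the KO libraries, at 75.7% and 76.3%, lay below the WT libraries, at 76.5% and 77.0%. The shares were given no test.

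Camk2b supplied 20.5% ± 0.170 in KO and 20.0% ± 0.902 in WT hippocampus (SD, n = 2 each). In cortex its share was lower, 13.6% ± 4.05 in KO and 12.5% ± 0.327 in WT. Camk2g took 18.2% ± 4.24 in KO and 19.3% ± 6.07 in WT cerebella, 3.13% in KO and 2.98% in WT hippocampus, and 6.90% in KO and 7.66% in WT cortex. Camk2d took 11.2% ± 0.837 in KO and 10.6% ± 1.79 in WT cerebella, and at most 1.40% in any forebrain library. The shares depend on the length that is divided by. With the longest coding transcript in place of all merged exons (5.52 kb in place of 22.49 kb for Camk2d), Camk2d took 20.0% in KO and 18.9% in WT cerebella, ahead of Camk2g at 13.8% in KO and 14.8% in WT, and Camk2a took 7.00% in KO and 7.12% in WT.

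**Figure D2:**
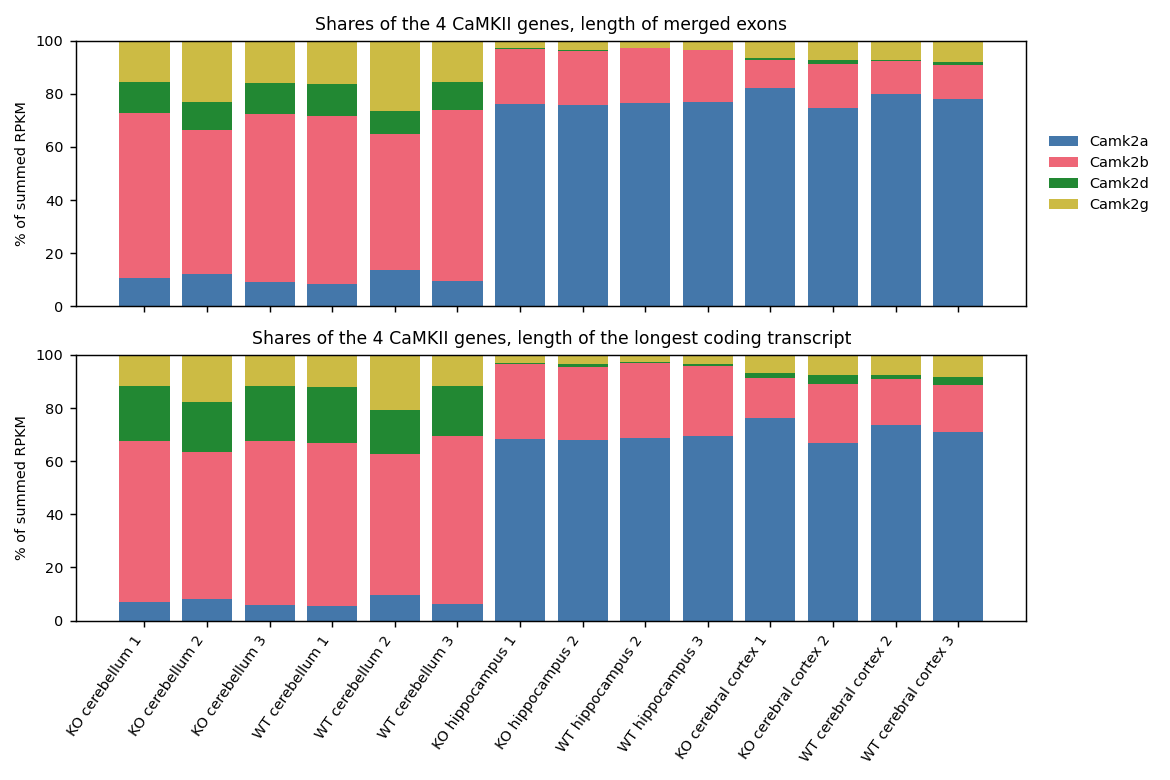
Share of each CaMKII gene in their summed RPKM, 1 bar per library, with levels per length of merged exons above and per length of the longest coding transcript below. Camk2b (red) is the largest share in all 6 cerebellar libraries and Camk2a (blue) in all 8 forebrain libraries, with either length.

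The sum of the 4 genes was 103, 104 and 104 RPKM in KO cerebella and 112, 122 and 114 in WT cerebella. Hippocampus had sums of 832 and 769 RPKM in KO and 828 and 785 in WT, and cortex 681 and 564 in KO and 663 and 584 in WT. The cerebellar sums of the genotypes did not overlap, while those of the other regions did; this sum was given no test.

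The ratio of Camk2a to Camk2b RPKM was 0.180 ± 0.0382 in KO and 0.186 ± 0.0735 in WT cerebella (SD, n = 3 each), 3.70 ± 0.0111 in KO and 3.83 ± 0.191 in WT hippocampus, and 6.08 ± 2.19 in KO and 6.31 ± 0.277 in WT cortex (SD, n = 2 each). The KO and WT libraries overlapped in all 3 regions. On the log2 scale the KO minus WT difference was 0.0018 in cerebellum, -0.05 in hippocampus and -0.10 in cortex. Its mean over the regions was -0.05, with p = 0.778 by a two-sided exact permutation test over the 720 rearrangements of genotype within regions. The smallest p of that test is 0.0028 if the regions are independent. It would be larger if libraries of different regions came from the same animals, and the labels do not say whether they did. Within a region the smallest p that the design allows is 0.1 in cerebellum and 0.333 in each forebrain region, and the exact p was 1, 0.667 and 1 for cerebellum, hippocampus and cortex. The libraries numbered 2 had the highest cerebellar ratios, 0.222 in KO and 0.270 in WT. Without WT cerebellum 2 the mean difference was 0.05, and without KO cortex 2, the library with the lowest cortical ratio (4.53), it was 0.08.

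Camk2n1, which encodes an inhibitor that binds active CaMKII (chromosome 4, 138454314 to 138460123, plus strand), was present in all regions, lowest in cerebellum and highest in cortex. It had 45.1, 53.9 and 39.5 RPKM in KO cerebella and 32.8, 43.0 and 32.7 in WT cerebella. Hippocampus had 134 and 125 RPKM in KO and 107 and 119.7 in WT, and cortex 362 and 272 in KO and 416 and 388 in WT. All 3 regions were separate, with log2 fold changes of -3.13 ± 0.12 for cerebellum over cortex, -1.57 ± 0.12 for cerebellum over hippocampus and -1.56 ± 0.13 for hippocampus over cortex. Camk2a, the transcript of the kinase it inhibits, by contrast showed no call between hippocampus and cortex, and its hippocampal libraries were all above the cortical ones.

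Camk2n2, the second inhibitor gene (chromosome 16, 20619215 to 20621287, minus strand), was lowest in hippocampus. It had 27.9, 29.1 and 21.5 RPKM in KO cerebella and 24.6, 35.3 and 26.3 in WT cerebella. Hippocampus had 11.2 and 15.3 RPKM in KO and 8.22 and 13.96 in WT, and cortex 31.8 and 40.3 in KO and 28.8 and 25.2 in WT. Hippocampus lay below every library of the other regions, with log2 fold changes of 1.18 ± 0.18 for cerebellum over hippocampus and -1.36 ± 0.19 for hippocampus over cortex. Cerebellum and cortex overlapped and the difference was not called (-0.18 ± 0.17, 95% interval -0.55 to 0.18).

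Set against the 4 CaMKII genes, the summed inhibitor transcripts had a ratio to the kinases of 0.699 ± 0.105 in KO and 0.558 ± 0.0722 in WT cerebella (SD, n = 3 each). In hippocampus the ratio was 0.178 ± 0.00539 in KO and 0.155 ± 0.0220 in WT, and in cortex 0.566 ± 0.0168 in KO and 0.690 ± 0.0258 in WT (SD, n = 2 each). Hippocampus thus had the lowest ratio in either genotype. Cortical KO libraries, at 0.578 and 0.554, lay below the WT libraries, at 0.671 and 0.708, while hippocampal KO libraries, at 0.174 and 0.182, lay above the WT libraries, at 0.139 and 0.170. KO overlapped WT in cerebellum, with 0.588 to 0.797 in KO and 0.515 to 0.642 in WT; no test was made of these ratios. With the longest coding transcripts the ratio was 0.306 in KO and 0.247 in WT cerebella, 0.106 in KO and 0.0927 in WT hippocampus, and 0.343 in KO and 0.421 in WT cortex.

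Within the inhibitor pair, Camk2n1 made up 61.8%, 64.9% and 64.8% of the summed RPKM in KO cerebella and 57.1%, 54.9% and 55.4% in WT cerebella. The genotypes did not overlap on this measure, which was added once the levels were known and is given without a test. In hippocampus the share was 92.3% and 89.1% in KO and 92.9% and 89.6% in WT. In cortex it was 91.9% and 87.1% in KO and 93.5% and 93.9% in WT, with KO lower in both libraries.

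**Figure D3:**
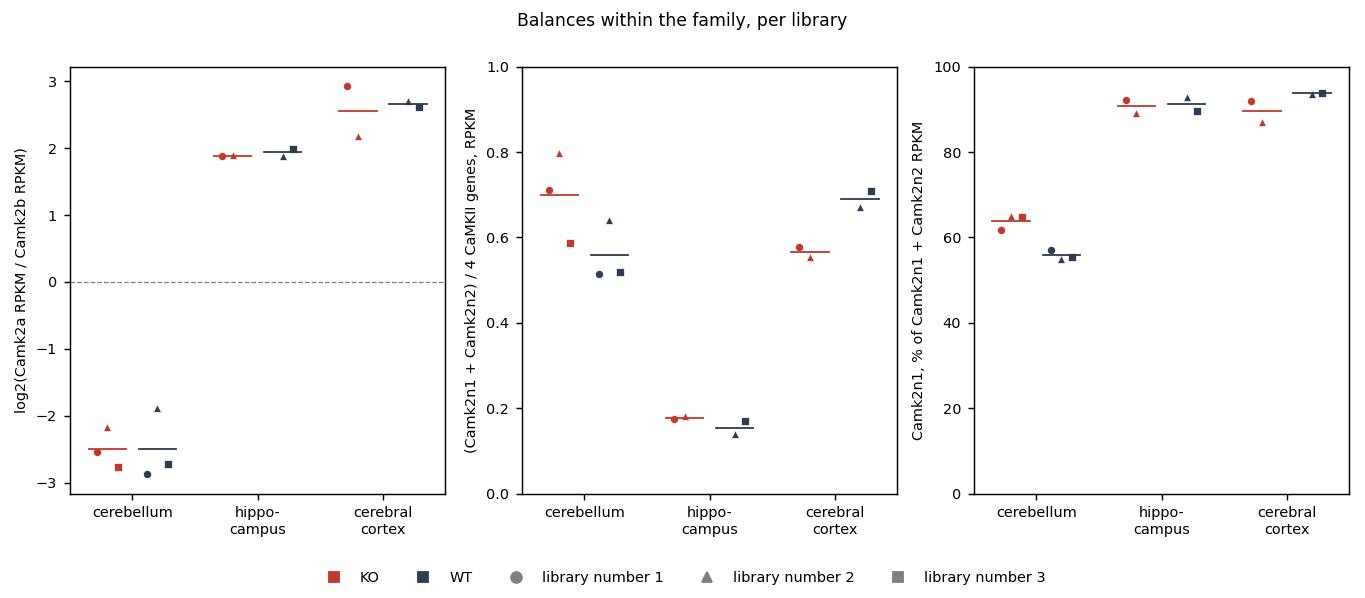
Per-library balances: log2 ratio of Camk2a to Camk2b (left), summed inhibitor to summed CaMKII RPKM (middle), and Camk2n1 as a percentage of both inhibitors (right), with KO in red left of WT in dark blue, shapes giving the library number and bars the mean. The left panel puts cerebellum below 0 and the forebrain above it, and the right panel shows the 3 KO cerebella at 61.8% to 64.9% above the WT cerebella at 54.9% to 57.1%.

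Camk4, which encodes CaMKIV (chromosome 18, 32934931 to 33191228, plus strand), was the most abundant of the 10 transcripts in cerebellum. It had 344, 279 and 362 RPKM in KO cerebella and 514, 287 and 334 in WT cerebella. Hippocampus had 77.1 and 75.7 RPKM in KO and 97.96 and 87.4 in WT, and cortex 143 and 129 in KO and 148 and 136 in WT. The regions were ordered cerebellum, cortex, hippocampus without overlap, with log2 fold changes of 1.34 ± 0.15 for cerebellum over cortex, 2.07 ± 0.16 for cerebellum over hippocampus and -0.72 ± 0.16 for hippocampus over cortex. The highest value, in WT cerebellum 1, stood beside the highest sum of granule cell markers, 4882 CPM, and the lowest values, in the libraries numbered 2, beside the lowest sums; the part of these markers in the differences was not tested. An antisense gene, 2310026I22Rik, shares 72 exonic bases with Camk4, and reads there cannot be told apart unless strand was used.

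Camkk1, which encodes CaMKK alpha (chromosome 11, 73019008 to 73042073, plus strand), was highest in hippocampus. It had 12.4, 13.6 and 10.9 RPKM in KO cerebella and 11.2, 15.3 and 12.2 in WT cerebella. Hippocampus had 41.9 and 37.6 RPKM in KO and 47.2 and 45.8 in WT, and cortex 26.0 and 22.8 in KO and 32.0 and 34.0 in WT. The 3 regions did not overlap, with log2 fold changes of -1.17 ± 0.10 for cerebellum over cortex, -1.77 ± 0.10 for cerebellum over hippocampus and 0.60 ± 0.11 for hippocampus over cortex.

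Camkk2, which encodes CaMKK beta, also an activating kinase of AMPK (chromosome 5, 122731170 to 122779409, minus strand), followed another order. It had 18.6, 14.9 and 18.5 RPKM in KO cerebella and 25.9, 16.6 and 21.8 in WT cerebella. Hippocampus had 13.7 and 12.2 RPKM in KO and 15.1 and 12.5 in WT, and cortex 26.0 and 16.9 in KO and 34.2 and 26.2 in WT. Hippocampus was below cortex in every library (-0.93 ± 0.17). Cerebellum was 0.53 ± 0.15 over hippocampus and -0.40 ± 0.15 over cortex, and its libraries overlapped those of both. The difference from cortex had an adjusted p of 0.0426 (edgeR) and was lost under library totals (-0.23) and when any of 11 libraries was left out. The difference from hippocampus was lost without KO hippocampus 2 (0.50, adjusted p = 0.0516) or WT hippocampus 3 (0.48, adjusted p = 0.0578). Camkk1 made up 41.6% of the summed CaMKK RPKM in KO and 38.0% in WT cerebella, 75.4% in KO and 77.2% in WT hippocampus, and 53.8% in KO and 52.4% in WT cortex. With the longest coding transcripts it made up 25.8% in KO and 23.2% in WT cerebella, 59.8% in KO and 62.2% in WT hippocampus, and 36.1% in KO and 34.9% in WT cortex.

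Camkv encodes a kinase-like protein of synapses that lacks catalytic activity (chromosome 9, 107935674 to 107949691, plus strand). Cerebellar libraries had 1.16, 2.92 and 0.506 RPKM in KO and 0.563, 5.74 and 0.574 in WT. Hippocampus had 117 and 115 RPKM in KO and 118 and 128 in WT, and cortex 54.7 and 79.8 in KO and 65.2 and 59.0 in WT. Cerebellum was lower than cortex (-5.08 ± 0.69) and hippocampus (-5.97 ± 0.72). Without WT cerebellum 2 the log2 fold changes were -6.09 and -6.98, and without the 3 libraries that stand apart -6.40 and -7.43. Within cerebellum the libraries numbered 2 were the highest of each genotype, as they were for Lamp5. The fit takes a single spread per gene over all 6 groups. The cerebellar spread of Camkv therefore also enters its SE between hippocampus and cortex. Hippocampus exceeded cortex in every library, but the difference was called only when the 3 libraries that stand apart were left out (1.04, adjusted p = 0.00102, against 0.89 ± 0.69, adjusted p = 0.497, with all libraries, edgeR).

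**Figure D4:**
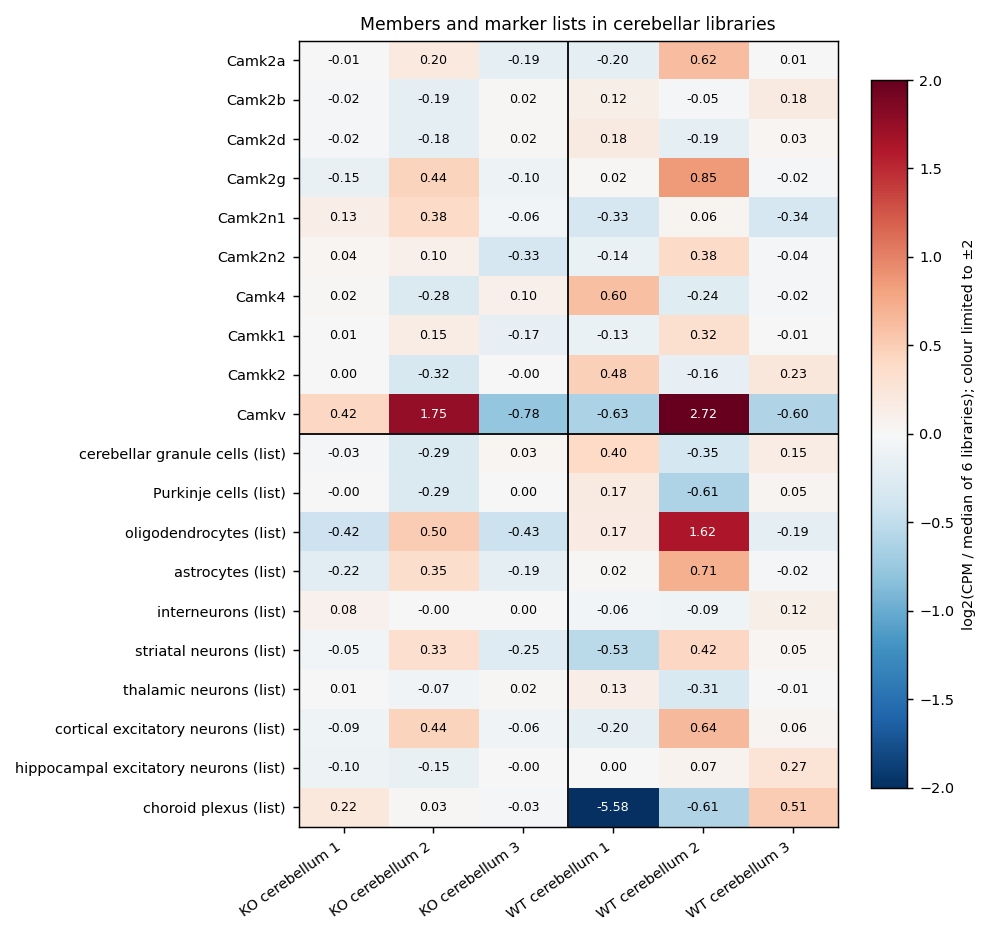
The 10 genes and 10 lists of cell type markers in the 6 cerebellar libraries, as log2 of CPM over the median of the 6; KO libraries stand left of the vertical line and colours are limited to 2 in either direction. Both libraries numbered 2 are high for Camkv (1.75 in KO and 2.72 in WT), Camk2g (0.44 and 0.85) and the oligodendrocyte list (0.50 and 1.62), and low for granule cell markers (-0.29 and -0.35).

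In the test of regions, 9 of the 10 genes were called between cerebellum and cortex, 2 higher and 7 lower in cerebellum, where 23.0% of 24680 genes were called higher and 25.3% lower. Between cerebellum and hippocampus 9 were called, 4 higher and 5 lower, where 22.6% of all genes were called higher and 24.7% lower. Between hippocampus and cortex 8 were called, 2 higher and 6 lower in hippocampus, where 5.49% of all genes were called higher and 6.48% lower. Under the alternatives the counts ranged from 7 to 9, 8 to 10 and 7 to 9. Scaling by library totals only shifted the median of all genes by 0.18 and 0.166 for the comparisons of cerebellum with cortex and with hippocampus. The share of called genes that were higher in cerebellum was then 61.8%, against 47.6% with TMM, in the first and 61.3%, against 47.8%, in the second. No regional direction of any of the 10 genes reversed under these scalings. In KO libraries alone 8, 8 and 5 genes were called in the 3 comparisons, where 36.4%, 32.1% and 3.77% of all genes were called, and in WT libraries alone 7, 9 and 5, where 30.7%, 30.8% and 5.54% were.

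The comparison of genotypes asked whether loss of CARIP moves any of these transcripts. No gene of the 10 was called in any region, nor for the mean of the regional effects, nor for a difference of the effect between regions (edgeR). DESeq2 called none of the 9 genes for which it gave an adjusted p, and gave none for Camkv. The background was as empty, with 0% of 24680 genes called in each region and 0.00405% for the mean effect. At an unadjusted p under 0.05, 1 of the 10 genes in cerebellum, 0 in hippocampus and 1 in cortex passed, against 785, 472 and 1825 of all genes. DESeq2 called 2, 2 and 47 of all genes in these regions.

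In cerebellum, Camk2n1 had the smallest p of the 10. At 45.1, 53.9 and 39.5 RPKM in KO and 32.8, 43.0 and 32.7 in WT, its log2 fold change was 0.35 ± 0.15 (adjusted p = 1, edgeR), or 1.27-fold with a 95% interval of 1.016 to 1.602. KO exceeded WT in each numbered pair, but WT 2 was above KO 3. With the library number as a block, 104 genes were called in cerebellum (0.421% of those tested) and none of the 10; there Camk2n1 had 0.35 ± 0.08 and an adjusted p of 0.0681. The other 9 genes were lower in KO on the fitted scale, from -0.57 ± 0.86 for Camkv to -0.07 ± 0.13 for Camkk1, each with an interval that spans 0 without the block. Of all genes, 47.6% were higher in KO cerebellum, with a median log2 fold change of -0.011. With the block, Camkk2 had -0.29 ± 0.08 (adjusted p = 0.214, edgeR), Camk2g -0.22 ± 0.08 (adjusted p = 0.377, edgeR) and Camk2b -0.15 ± 0.08 (adjusted p = 0.626, edgeR), each lower in KO in every numbered pair. The direction of 7 of these 9 turned when a library was left out, 5 of them without WT cerebellum 2 and 2 without WT cerebellum 1, while that of Camk2b and Camkk2 did not. For none of the 10 genes were all KO cerebella on 1 side of all WT cerebella, as was the case for 9.30% of all genes.

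In hippocampus, Camk2d had the largest difference. At 2.42 and 3.41 RPKM in KO and 1.65 and 2.18 in WT it did not overlap between genotypes, with a log2 fold change of 0.61 ± 0.28 (adjusted p = 1, edgeR) or 1.52-fold with a 95% interval of 0.995 to 2.33. The oligodendrocyte list, all 6 markers of which were detected, summed to 2217 to 3053 CPM in KO and 3627 to 4240 in WT hippocampus, and the 5 choroid plexus markers to 78.4 to 93.8 CPM in KO and 127 to 1125 in WT; their part in this difference was not tested. In all, 5 of the 10 genes did not overlap, with Camk2d and Camk2n1 higher and Camk4, Camkk1 and Camkv lower in KO, where 36.6% of all genes did not overlap. Camkk1 had -0.23 ± 0.15 and Camk4 -0.28 ± 0.22, neither called.

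In cortex, Camkk1 was lower in both KO libraries, at 26.0 and 22.8 RPKM against 32.0 and 34.0 in WT. The log2 fold change was -0.44 ± 0.15 (adjusted p = 0.671, edgeR), or 0.740 times WT with a 95% interval of 0.586 to 0.933. Camkk2, at 26.0 and 16.9 RPKM in KO and 34.2 and 26.2 in WT, had -0.50 ± 0.24 (adjusted p = 0.675, edgeR), and KO 1 lay just under WT 3. Without KO cortex 2 the Camkk2 difference was -0.24 (adjusted p = 1, edgeR). Without KO cortex 1, which leaves KO cortex 2 as the only KO library and takes the spread from the other groups, it was called (-0.87, adjusted p = 0.0474, edgeR), among 2884 genes. KO cortex 2 is the library with high Drd2 and Tcf7l2. The 6 striatal markers summed to 256 CPM there and to 28.2 CPM in KO 1, against 23.6 to 25.3 CPM in WT. The 6 cortical markers summed to 681 CPM in KO cortex 2 and to 1066.5 to 1103 CPM in the other cortical libraries. The part of these markers in the cortical differences was not tested. Camk2n1 had -0.34 ± 0.19 and Camk2n2 0.42 ± 0.26, neither called, and Camk2n1 had -0.17 without KO cortex 2. For 5 of the 10 genes the genotypes did not overlap, Camk2n2 being higher and Camk2g, Camk2n1, Camkk1 and Camkk2 lower in KO, where 27.3% of all genes did not overlap.

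**Figure D5:**
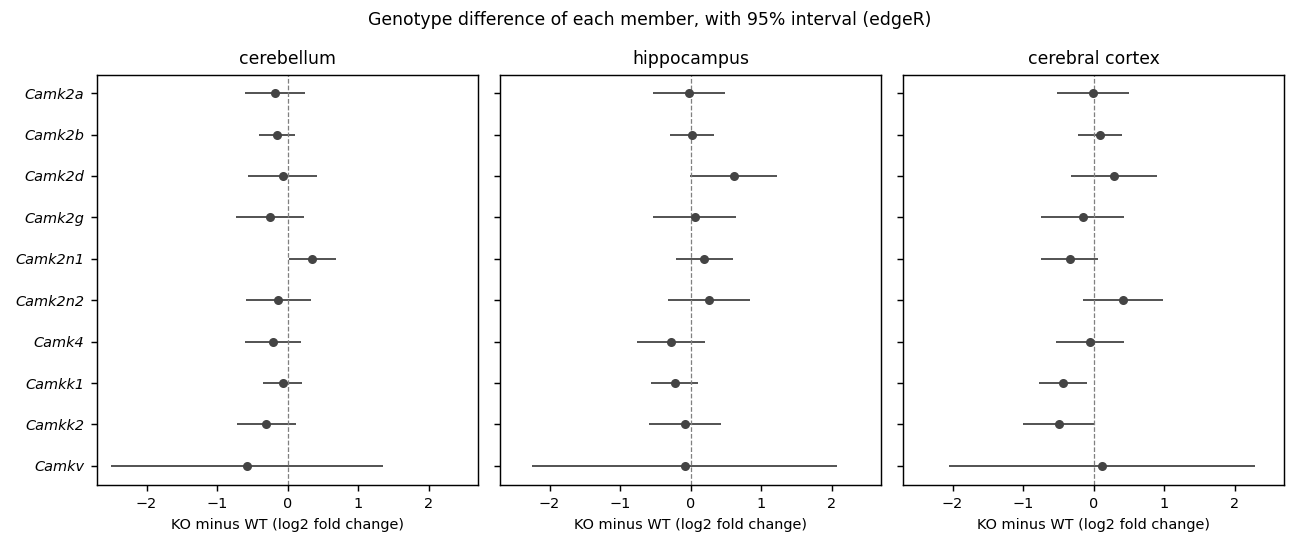
KO minus WT log2 fold change of each gene by region, with its 95% interval from the edgeR fit to all libraries. Intervals that exclude 0 are those of Camk2n1 in cerebellum (0.02 to 0.68) and Camkk1 in cortex (-0.77 to -0.10), and no gene passed adjustment over all genes; those of Camkv are the widest.

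Averaged over the regions, the smallest p-values were those of the CaM kinase kinases. Camkk1 had a mean difference of -0.24 ± 0.08 (adjusted p = 0.707, edgeR) and Camkk2 of -0.30 ± 0.13 (adjusted p = 0.819, edgeR), lower in KO in each of the 3 regions on the fitted scale. The alternatives gave Camkk1 a mean of -0.28 to -0.19 with adjusted p-values of 0.155 to 1. Among the differences of the KO effect between regions, that of Camk2n1 had the smallest p: it was 0.69 ± 0.24 for cerebellum minus cortex (adjusted p = 0.787, edgeR). Scaling by library totals only shifted the median of all genes by 0.135 in this comparison, and without KO cortex 1 the difference was called (0.94, adjusted p = 0.0471, edgeR), among 1459 genes. That fit has KO cortex 2, a library that stands apart, as its only KO cortex and takes the spread from the other groups.

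All of 22 other genes listed with the CaM kinase cascade were tested. They were further CaM kinases, calmodulins, CaM kinase phosphatases, calcineurin, CREB with related factors and coactivators, and Nrgn, Pcp4, Eef2k and Dapk1. These last genes belong to none of the classes named. Pcp4 is in the counts given here, although it had at most 2.07 CPM in any library. Between cerebellum and cortex 5 were called higher and 15 lower, where 23.0% of all genes were called higher and 25.3% lower, with a median log2 fold change of -0.60 against 0.01 over all genes. Nrgn, a calmodulin-binding protein of dendritic spines, differed most (-6.40 ± 0.66), followed by the calmodulin-regulated kinase Dapk1 (-3.03 ± 0.22), Camk1g (-1.84 ± 0.17) and Ppm1e, a CaM kinase phosphatase (-1.57 ± 0.18). Between cerebellum and hippocampus 6 were called higher and 14 lower, where 22.6% of all genes were called higher and 24.7% lower (median -0.75 against 0.02), among them Nrgn (-6.02 ± 0.65), Dapk1 (-3.49 ± 0.22), Ppm1e (-2.77 ± 0.18) and the calcineurin subunit Ppp3r1 (-2.14 ± 0.13). Between hippocampus and cortex 5 were called higher and 2 lower, where 5.49% of all genes were called higher and 6.48% lower, with Ppm1e (1.20 ± 0.20) and the calcineurin subunit Ppp3ca (0.85 ± 0.12) higher and Camk1 (-1.11 ± 0.12) and Camk1g (-0.79 ± 0.19) lower. No gene of the list was called between genotypes; the smallest p-values were those of Crtc1 (-0.18 ± 0.11) and Calm3 (-0.23 ± 0.15) in cerebellum, Pnck (0.42 ± 0.25) and Calm2 (-0.22 ± 0.15) in hippocampus, and Pnck (0.46 ± 0.25) and Crem (-0.43 ± 0.25) in cortex.

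Of 12 partners and substrates of CaMKII, 1 was called higher and 9 lower in cerebellum than in cortex (median -1.57 against 0.01 over all genes), and 1 higher and 10 lower than in hippocampus (median -2.25 against 0.02). Of all genes, 23.0% were called higher and 25.3% lower in the first comparison, and 22.6% and 24.7% in the second. Grin2b, the NMDA receptor subunit that binds CaMKII, had -4.34 ± 0.33 against cortex and -4.83 ± 0.34 against hippocampus, the postsynaptic scaffold gene Lrrc7 -4.17 ± 0.40 and -4.37 ± 0.40, and Actn2, an actin cross-linker, -3.20 ± 0.45 and -3.48 ± 0.45. In ascending order, cerebellar Grin2b was 54.0, 60.4 and 114 CPM in KO and 61.9, 67.9 and 184 in WT. Cerebellar Lrrc7 was 12.8, 12.8 and 32.3 CPM in KO and 13.8, 16.0 and 48.8 in WT. Fits that leave libraries out are not given for these genes. Between hippocampus and cortex 3 were called, all higher, as were 5.49% of all genes: the AMPA receptor subunit gene Gria1 (1.78 ± 0.13), the NMDA receptor subunit gene Grin2a (0.87 ± 0.13) and the Ras exchange factor gene Rasgrf1 (0.66 ± 0.14). None was called between genotypes. Gria1 had the smallest p in cerebellum (-0.38 ± 0.14, adjusted p = 1, edgeR) and, with the other sign, in cortex (0.51 ± 0.17, adjusted p = 0.667, edgeR), and its difference of KO effect, cerebellum minus cortex, was -0.90 ± 0.22 (adjusted p = 0.787, edgeR). The next in cerebellum was Syn1 (-0.24 ± 0.18) and in cortex Actn2 (1.14 ± 0.66), and in hippocampus Grin1 (-0.23 ± 0.16) and Syn1 (-0.23 ± 0.22) came first.

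The genes whose log2 CPM followed these transcripts most closely over the 14 libraries were sought among 11337 genes, as a description, since libraries of 1 region share their tissue. Camk2a was most like Chrm1 (Pearson r = 0.998), a muscarinic acetylcholine receptor gene, Chn1 (0.997) and Icam5 (0.997). Camk2n1 was most like Lrrc4c (0.989), Phf24 (0.988) and Atrnl1 (0.987), and Camk4 was most like Ablim1 (0.981) and Astn2 (0.980). Chrm1 averaged 1.13 CPM in cerebellum, 268 in hippocampus and 199 in cortex, and Lrrc4c averaged 79.7, 128 and 221 CPM in the same regions.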

How the data were processed

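Total RNA of 14 libraries was sequenced, and the authors deposited 1 table of whole-number read counts per gene that were not normalized. Per the submitters' processing notes, the tools were Trim Galore 0.6.4, cutadapt 2.10, STAR 2.7.3a and featureCounts 2.0.1, with GRCm38.p6. The sources used here do not state strand, the treatment of multimapping reads or the annotation release. Symbols, exons and coordinates came from GENCODE M21 (GRCm38), where 48058 of 48440 identifiers (99.2%) matched without their version. The counts totalled 20.1 to 38.8 M per library (median 24.7 M), so low transcripts such as Camkv in cerebellum carry the most counting error. The share of 50-base stretches that Camk2a, Camk2b and Camk4 have in common with other genes was 0.293%, 0.159% and 0.710%, and was 0 for the other 7 genes.

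The filter filterByExpr kept 24680 genes, all 10 described here among them. The 6 groups of region and genotype were fitted together by edgeR 4.0.16 (robust quasi-likelihood, TMM, R 4.3.3; biological coefficient of variation 24.7%), with Benjamini-Hochberg adjustment over all genes and a threshold of 0.05. The scripts were tested on simulated counts. Alternatives were DESeq2 1.42.0, other scalings, no filter, region-wise fits, limma 3.58.1 with a random block, other gene lengths and leaving out each library. The 10 genes are given in full; of each other gene list, up to 4 called genes with the largest change are named or else the 2 with the smallest p, and for likeness the 3 highest correlations; 2 genes that this rule names are not reported here. The 10 genes and the lists were chosen with earlier results of these data known.

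Library numbers were checked as pairs in cerebellum. Deviations from the group mean correlated at 0.324, 0.809 and 0.425 between KO and WT libraries numbered 1, 2 and 3 over 15886 genes, all above 0.1, but KO 3 with WT 1 reached 0.516, so the data single out number 2 and leave the pairing of 1 and 3 unsettled. The labels do not explain the numbers. Fits with and without the block are given.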

Additional observations from a re-analysis of the deposited data

How the results depend on the processing

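Of the alternatives for the genotype differences of single genes, 765 kept direction and side of the threshold, 40 reversed and 1 gained a call; for the regional differences 574 kept both, 20 lost and 3 gained a call, and none reversed. Leaving out 1 library at a time gave these ranges of KO minus WT log2 fold change. In cerebellum they were -0.34 to 0.099 for Camk2a, -0.16 to 0.016 for Camk2d, -0.47 to 0.089 for Camk2g, -0.24 to 0.040 for Camk2n2, -0.37 to 0.079 for Camk4, -0.16 to 0.074 for Camkk1 and -1.47 to 1.46 for Camkv. In cortex they were -0.26 to 0.16 for Camk2a, -0.11 to 0.22 for Camk2b, -0.11 to 0.77 for Camk2d and -0.20 to 0.33 for Camkv, and in hippocampus -0.090 to 0.043 for Camk2a, -0.056 to 0.11 for Camk2b, -0.065 to 0.19 for Camk2g, -0.073 to 0.69 for Camk2n2 and -0.22 to 0.061 for Camkk2. For the mean effect they were -0.15 to 0.022 for Camk2a, -0.075 to 0.035 for Camk2b, -0.016 to 0.13 for Camk2n1 and -0.48 to 0.50 for Camkv, and for the Camk2a to Camk2b log2 ratio -0.17 to 0.075. The number of the 10 genes called ran from 0 to 1 in cortex and from 0 to 1 for the difference of effect between cerebellum and cortex, the 1 being Camkk2 and Camk2n1 without KO cortex 1; the cause was not tested. Leaving out KO cerebellum 2, WT cerebellum 2 and KO cortex 2 together, an alternative chosen after seeing the data, gave 0.56 for Camkv in cerebellum, 0.18 for Camk2a, -0.089 for Camk2b, -0.023 for Camk2d, 0.016 for Camk4 and -0.18 for Camkv in cortex, 0.050 for Camk2a and 0.097 for Camkv over the regions, and 0.12 for the log2 ratio (exact permutation p = 0.157). With the replicate block in cerebellum no gene of the 10 was called. With genotype and number together as a random block, the counts of region calls were 9, 9 and 8. That random block joins regions within a genotype and does not pair KO with WT. Neither block changed another call of the 10 genes. All 104 genes of the blocked cerebellar fit compare with 0 without it. No paired analysis was possible in cortex and hippocampus because the genotypes share only number 2 there. All genes called between genotypes in cortex numbered 0 with all libraries, 47 with DESeq2 and 2884 without KO cortex 1.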
